A study of Mus musculus with 6 samples.

Results

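The 44 genes whose symbols have the form of a collagen chain name (Col, a type number, the letter a and a chain number) were followed through all 6 libraries, out of 24421 genes counted. Every such symbol in the table was taken, whatever its level, and the members were sorted by textbook structure into 11 fibrillar, 8 basement membrane and 25 other collagens. The skin BECs, or blood endothelial cells, came from E15.5 embryos of the Dot1l 2f/2f genotype, in which both the Cont and the cKO embryos carried the floxed Dot1l allele and the cKO embryos also carried Tie2-Cre, a recombinase driven by a promoter active in endothelial and blood cells. They were selected as negative for F4/80, CD45 and Lyve1 and positive for CD31, and RNA of 2 to 3 embryos was pooled for a library. The cultured cells were the yolk sac BEC line CRL-2581 and the embryonic dermal LECs (lymphatic endothelial cells) C57-6064L. The OE-BECs and OE-LECs had received lentivirus carrying dCas9-VP64, a transcriptional activator, with guides to the Dot1l promoter, and their Cont cells an empty lentivirus. Transduced cells were sorted by GFP, and each library pooled 2 to 3 flasks. Each condition had 1 library, so every comparison describes a pair of libraries, no test of a condition was possible, and the 95% intervals given (exact, Clopper-Pearson) cover counting error only.

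Collagens are proteins of the extracellular matrix whose chains wind into triple helices. Fibrillar collagens such as types I, III and V form the rope-like fibrils of the dermis and of vessel walls, and are made above all by fibroblasts. Type IV collagen forms the sheet-like network of basement membranes on which endothelial cells sit, and types XV and XVIII, the multiplexins, are anchored in that sheet and release the fragments restin and endostatin. The others include FACITs (collagens that decorate fibrils), type VI beaded filaments, short-chain network collagens and collagens that span the cell membrane.

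Total counts ran from 8863349 to 31032461 reads per library, and the sum over the 44 collagens from 53056 to 130667 reads. The skin libraries held reads of all 10 blood endothelial markers, but also of 10 of 10 fibroblast, 9 of 9 pericyte and smooth muscle, 7 of 7 macrophage and 6 of 7 lymphatic endothelial markers, each above 3 reads in both libraries, Lyve1 among them. The cultured LEC libraries had 0 reads of Prox1, the defining transcription factor of LECs, and of Ccl21a and Pdpn. Only 2 of the 7 lymphatic markers, Lyve1 among them, were above 3 reads in each. Dot1l, the targeted gene, had 762 reads in Cont skin BECs and 944 in the cKO library, a log2 ratio of -0.07 (interval -0.21 to 0.07). The RNA count therefore did not separate the library labelled cKO from its control, and reads of undeleted exons are part of that count. The study also measured Dot1l by RT-qPCR, without a replicate for the knockout, and reported that this bore out the knockout. That measurement was not analysed here. Dot1l was 2.78-fold higher in OE-BECs and 2.30-fold higher in OE-LECs. In such bulk libraries, fewer cells of a type and less RNA per cell cannot be told apart.

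Type IV collagen led the collagen transcripts of every library. Levels of different genes were compared as CPM (reads per 1000000 reads of the library) divided by the exon length in kilobases. Col4a1, the main type IV chain, had 513 CPM per kilobase in Cont skin BECs, 387 in the library labelled cKO, 331 and 309 in the yolk sac BECs without and with overexpression, and 345 and 330 in the LECs likewise. Col4a2, its partner chain, had 308, 239, 162, 162, 187 and 181 CPM per kilobase in the same order. These were the highest and the next highest of the 44 values in all 6 libraries. Col18a1, the source of endostatin, ranked between the third and the fifth place, with 121 and 125 CPM per kilobase in skin and 36.0 to 56.4 in culture.

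What came after type IV differed between skin and culture. In Cont skin BECs the next genes per kilobase were Col3a1, the single chain of type III fibrils, with 213 CPM per kilobase, Col1a2, a type I chain, with 135, Col18a1 with 121, Col15a1 with 94.2 and Col1a1, the other type I chain, with 74.96. In cultured Cont BECs they were Col18a1 with 41.1, Col13a1, a membrane-spanning collagen, with 38.1, Col5a1, a type V chain that starts fibrils, with 10.4, and Col20a1, a FACIT, with 8.90. Cont LECs had Col13a1 at 64.8, Col18a1 at 45.9, Col5a1 at 14.5 and Col8a1, a short-chain collagen of endothelial cells, at 8.92 CPM per kilobase. The yolk sac BECs and the dermal LECs thus had the same 5 leading collagens, with no type I or III chain among them.

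**Figure D1:**
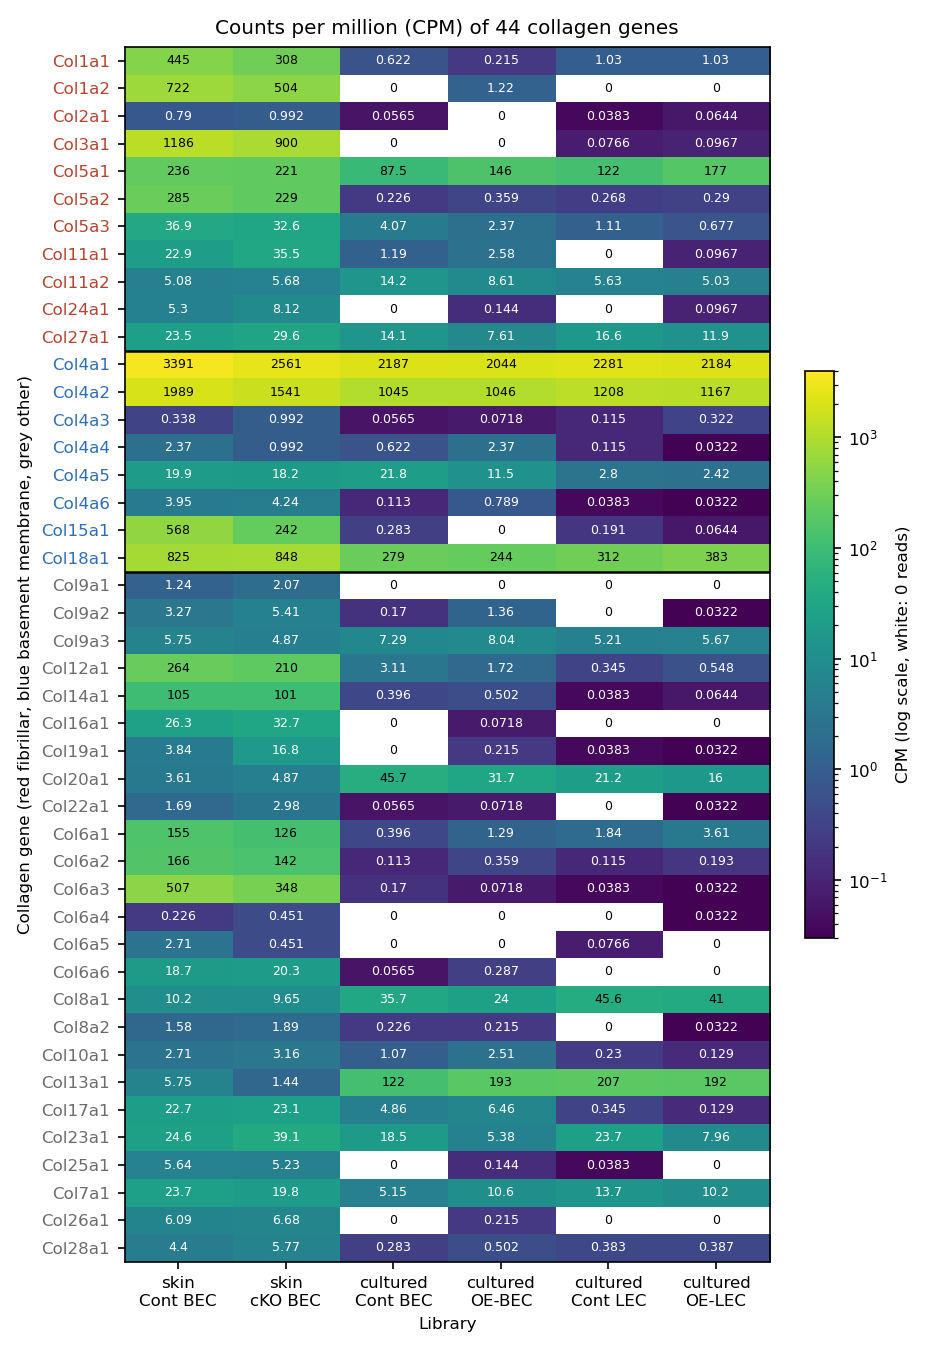
The map gives the CPM (colour, log scale, printed in each cell) of the 44 collagen genes (rows) in the 6 libraries (columns), with white for 0 reads, and gene names in red for fibrillar, blue for basement membrane and grey for other collagens. Col4a1 and Col4a2 are high in every column, while Col1a1, Col1a2, Col3a1, Col6a3 and Col15a1 are high in both skin columns and at or near 0 in the 4 cultured columns.

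All 44 collagens had reads in both skin libraries, and fewer did in culture. Above the floor of 3 reads were 42 members in Cont skin BECs, 44 in the library labelled cKO, 26 and 28 in the cultured BEC libraries and 22 and 23 in the LEC libraries. A total of 20 members were above the floor in all 6 libraries, among them Col4a1, Col4a2, Col4a5, Col18a1, Col5a1, Col8a1, Col13a1 and Col23a1. Another 11 were above it in both skin libraries and in no cultured one. These were the fibrillar Col2a1, Col3a1 and Col24a1, the FACITs Col9a1, Col16a1, Col19a1 and Col22a1, the type VI chains Col6a3 and Col6a5, the membrane-spanning Col25a1, and Col26a1. No basement membrane collagen belonged to that group. The cultured libraries were the deeper ones, so the lower number above the floor did not follow depth. These numbers were not set beside those of all genes, so they cannot be called particular to collagens.

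The absence in culture was steepest for the collagens of connective tissue. Col3a1 had 10508 and 9978 reads in the skin libraries and 0, 0, 2 and 3 reads in the cultured ones (here and below in the order BECs without and with overexpression, then LECs likewise). Col1a2 had 6403 and 5587 reads in skin and 0, 17, 0 and 0 in culture, and Col1a1 had 3940 and 3419 against 11, 3, 27 and 32. Col6a3, the long chain of type VI filaments, had 4490 and 3857 reads in skin and 3, 1, 1 and 1 in culture. Col15a1 followed the same division although it is a basement membrane collagen, with 5031 and 2684 reads in skin and 5, 0, 5 and 2 in culture. The skin and cultured ranges did not overlap for any of these 5 genes. They were picked as steep cases, and the share of all genes without overlap was not taken. Fibroblast markers followed the same division: all 10 were above the floor in both skin libraries, with summed levels of 763 and 616 CPM, and 2 to 4 of them in culture, with 12.6 to 94.3 CPM, where Dpt, Lum, Dcn, Postn and Twist2 were at 0 in both Cont libraries. Summed pericyte and smooth muscle markers stood at 955 and 797 CPM in skin and 5.48 to 6.32 CPM in culture, where Rgs5 and Kcnj8 were at 0 in all 4 libraries. The part of these cells in the skin collagen levels was not tested.

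A smaller number of collagens had the opposite order. Col13a1 had 5.75 and 1.44 CPM in the skin libraries and 122, 193, 207 and 192 CPM in culture. Col20a1 had 3.61 and 4.87 CPM in skin against 45.7, 31.7, 21.2 and 16.0 in culture. Col8a1 had 10.2 and 9.65 CPM in skin against 35.7, 24.0, 45.6 and 41.0 in culture. All 4 cultured values of each of these genes exceeded both skin values. The genes were picked for that order, and its share over all genes was not taken. The cultured cells differ from the skin cells in origin, growth in culture and virus, which cannot be told apart here.

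By class, the share of fibrillar collagens in all collagen reads was 26.6% (26.4 to 26.9) in Cont skin BECs and 26.4% (26.1 to 26.7) in the library labelled cKO, and 3.13 to 4.67% in the cultured libraries. Basement membrane collagens made up 61.1% and 60.5% in skin and 88.0 to 90.6% in culture. The other collagens made up 12.3% and 13.1% in skin and 6.28 to 7.58% in culture. Per kilobase, membrane-spanning collagens were 0.637 and 0.915% of the summed level in skin and 6.87 to 10.2% in culture, nearly all of it Col13a1. Type VI filaments went the other way, with 6.61 and 6.64% in skin and 0.0223 to 0.138% in culture.

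**Figure D2:**
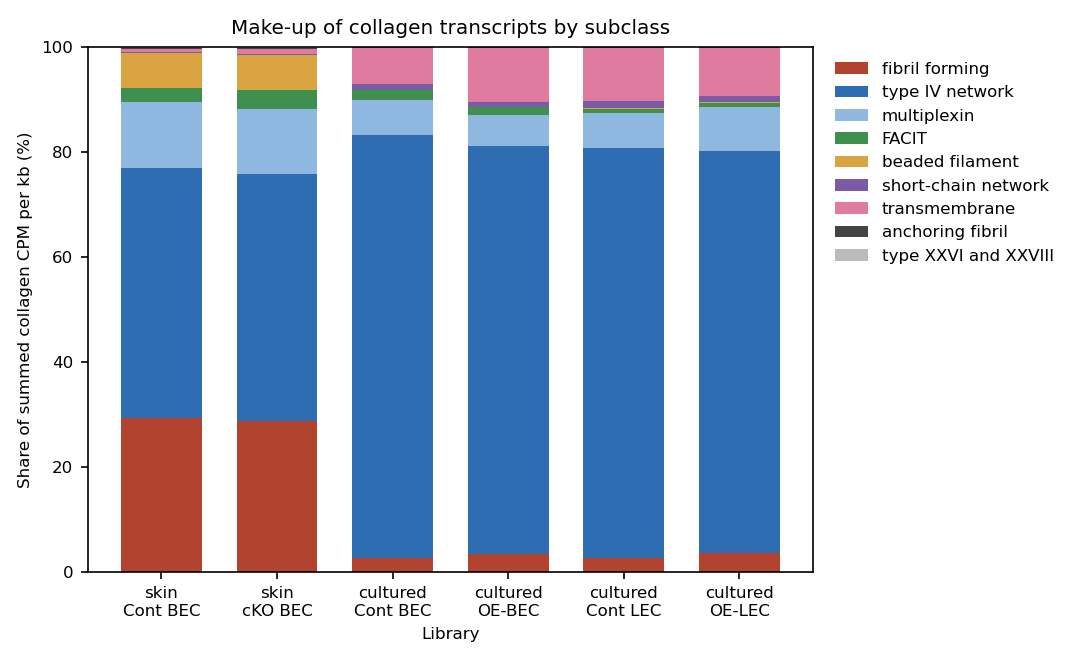
Each bar gives, for 1 library, the share (%) of the summed collagen CPM per kilobase held by 9 structural subclasses, which together make 100%. The type IV network takes 47.7 and 47.1% in the skin libraries and 76.5 to 80.7% in the cultured ones, where the fibril forming share is 2.52 to 3.56%.

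Some collagen types are built from more than 1 kind of chain. For these, the ratio of partner chains was taken within each library, which removes any scaling between libraries. Col4a1 and Col4a2, whose proteins join in a heterotrimer with more Col4a1 than Col4a2 chains, kept a narrow ratio per kilobase of 1.66 and 1.62 in skin, 2.04 and 1.91 in cultured Cont BECs and OE-BECs, and 1.84 and 1.82 in Cont LECs and OE-LECs. Their genes lie head to head on chromosome 8 (GRCm38), Col4a1 at chr8:11198423-11312826 on the minus strand and Col4a2 at chr8:11312805-11449287 on the plus strand, with annotated starts 21 bases apart and 22 overlapping bases. The interval of the cultured Cont BEC ratio (2.01 to 2.08) lay above that of the OE-BEC ratio (1.87 to 1.94), a difference beyond counting error in 1 library each. The ratio of Col1a1 to Col1a2 per kilobase was 0.555 and 0.552 in skin, and 0.159 (0.0299 to 0.550) in OE-BECs, on 3 and 17 reads. In the other 3 cultured libraries Col1a2 had 0 reads beside 11, 27 and 32 of Col1a1.

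For other partners most ratios in culture were far from those in skin. Col5a1 and Col5a2 form type V collagen together, and their ratio per kilobase was 0.653 (0.616 to 0.692) and 0.761 (0.72 to 0.805) in skin. In culture it was 305, 321, 359 and 482, with 1547 to 5500 reads of Col5a1 beside 4 to 9 reads of Col5a2. Col6a1 and Col6a2, partners in type VI filaments, had ratios per kilobase of 1.37 and 1.29 in skin, 5.13 (0.977 to 50.6, not apart from skin) and 5.28 (1.89 to 18.2) on 2 and 5 Col6a2 reads in the cultured BEC libraries, and 23.4 and 27.4 in the LEC libraries. For the short-chain partners Col8a1 and Col8a2 the ratio was 5.45 and 4.32 in skin and 134 and 94.7 in cultured BECs. The cultured LECs had 0 and 1 read of Col8a2 beside 1190 and 1271 of Col8a1. For Col11a1 and Col11a2, minor fibrillar chains known from cartilage, the order of the partners itself was reversed, with ratios of 3.71 and 5.13 in skin and 0.0688, 0.247, 0 and 0.0158 in culture.

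**Figure D3:**
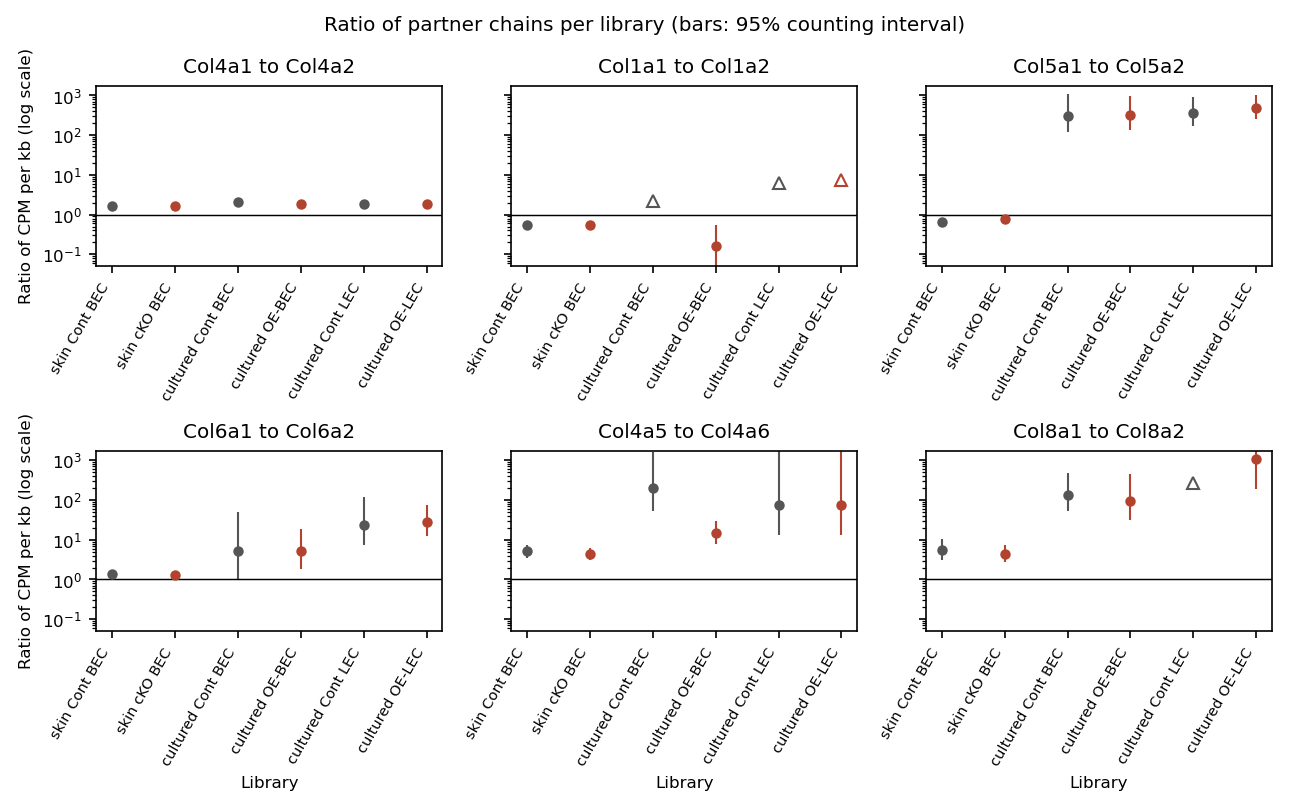
For 6 pairs of partner chains, points give the ratio of CPM per kilobase of the first to the second chain (log axis) in each library, grey for control and red for changed libraries, with 95% counting intervals, some running past the axis. Open triangles mark lower counting limits where the second chain had 0 reads, and the line is at a ratio of 1. Col4a1 to Col4a2 stays between 1.62 and 2.04, while Col5a1 to Col5a2 is below 1 in skin and 305 to 482 in culture.

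For the comparison of the library labelled cKO with Cont skin BECs, the question was which genes differ after deletion of Dot1l, a histone H3 lysine methyltransferase. Counts were scaled by DESeq2 size factors of the pair, and the study's rule called a gene if the library with more of it had at least 5 normalized counts and exceeded the other more than 3-fold. A total of 1 of 43 collagens reaching that minimum was called higher, beside 5.17% of all genes at the minimum, and 2 were called lower, beside 2.41%. With a minimum of 20 the counts were 1 and 2 of 40, beside 2.73% and 1.12%. All 3 were among the other collagens, and no fibrillar or basement membrane collagen was called. Col19a1, a FACIT at basement membrane zones that embryonic muscle makes, had 34 reads in Cont and 186 in cKO, 4.21-fold higher (log2 2.07, interval 1.54 to 2.65). Col13a1 had 51 and 16 reads, 4.14-fold lower (log2 -2.05, -2.96 to -1.22), and Col6a5, an alternative type VI chain, had 24 and 5 reads, 6.24-fold lower (log2 -2.64, -4.39 to -1.22). These 3 were minor members in skin, at 16.8 CPM or less in either library.

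The abundant collagens of skin differed by less and mostly in 1 direction. Col15a1 had the widest difference among those with at least 100 reads in both libraries, from 5031 to 2684 reads or 568 to 242 CPM, 2.44-fold lower (log2 -1.28, -1.35 to -1.22), under the 3-fold threshold. It was singled out after its values were seen. Col18a1, the other multiplexin, had 7311 and 9404 reads and a log2 ratio of -0.01 (-0.06 to 0.03), with 825 and 848 CPM, so the pair of related genes parted. Col4a1 and Col4a2 had log2 ratios of -0.46 (-0.48 to -0.44) and -0.42 (-0.45 to -0.39). Among fibrillar chains, Col1a1 and Col1a2 were at -0.58 and -0.57, Col3a1 at -0.45 and Col5a2 at -0.37. Col6a3 was at -0.60, Col6a1 at -0.35 and Col6a2 at -0.27. The intervals of all of these except Col18a1 lay below 0.

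Some of the less abundant chains lay on the other side. Col11a1 had 203 and 393 reads (log2 0.58, 0.33 to 0.83), Col24a1, a minor fibrillar chain, 47 and 90 (log2 0.56, 0.03 to 1.10), and Col27a1, another of that kind, 208 and 328 (log2 0.28, 0.02 to 0.54). Col9a2, a FACIT of cartilage fibrils, had 29 and 60 reads (log2 0.67, 0.01 to 1.36), and Col23a1, a membrane-spanning collagen, 218 and 433 (log2 0.61, 0.37 to 0.85). Chains of a like level did not all do so: Col5a3, an alternative type V chain, had 327 and 361 reads (log2 -0.24, -0.46 to -0.01). The FACIT Col12a1, a more abundant chain with 2336 and 2326 reads, was at -0.38. Of 41 members with at least 20 reads in the pair, 7 had intervals above 0 and 17 below 0, beside 24.2% and 26.8% of all genes. The median log2 ratio was -0.19 for 10 fibrillar, -0.42 for 7 basement membrane and 0.02 for 24 other members, and -0.01 over all 14437 genes with that many reads. The median of the other members turned to -0.11 with a minimum of 100 reads. As reads summed over a class, all classes were lower in cKO, by log2 ratios of -0.44 for fibrillar, -0.44 for basement membrane and -0.33 for other collagens, so that the shares of the 3 classes were nearly those of Cont.

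Markers of several cell types differed between the skin libraries as well. All 10 blood endothelial markers had log2 ratios below 0, with summed levels of 6301 CPM in Cont and 3809 in cKO, as did 8 of 10 fibroblast markers and 7 of 9 pericyte and smooth muscle markers. All 7 macrophage markers had ratios above 0, with 3429 and 5388 CPM, although the selection was for F4/80-negative and CD45-negative cells. Chondrocyte markers summed to 24.5 and 43.2 CPM, where 6 of 7 were above the floor in each library. Of these, 4 had log2 ratios above 0 and 2 below. Lect1 and Hapln1 were called higher, beside 5.17% of all genes at the minimum, and Comp lower, beside 2.41%. Keratinocyte markers summed to 116 and 216 CPM, and of these 6 markers Krt1 and Krt10 were called higher, beside the same 5.17%. Skeletal muscle markers summed to 123 and 104 CPM, with Myod1 at 0 in both, and Schwann cell markers to 36.9 and 52.2 CPM. The part of these cells in the differences of Col15a1, Col11a1, Col9a2 or Col19a1 was not tested.

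**Figure D4:**
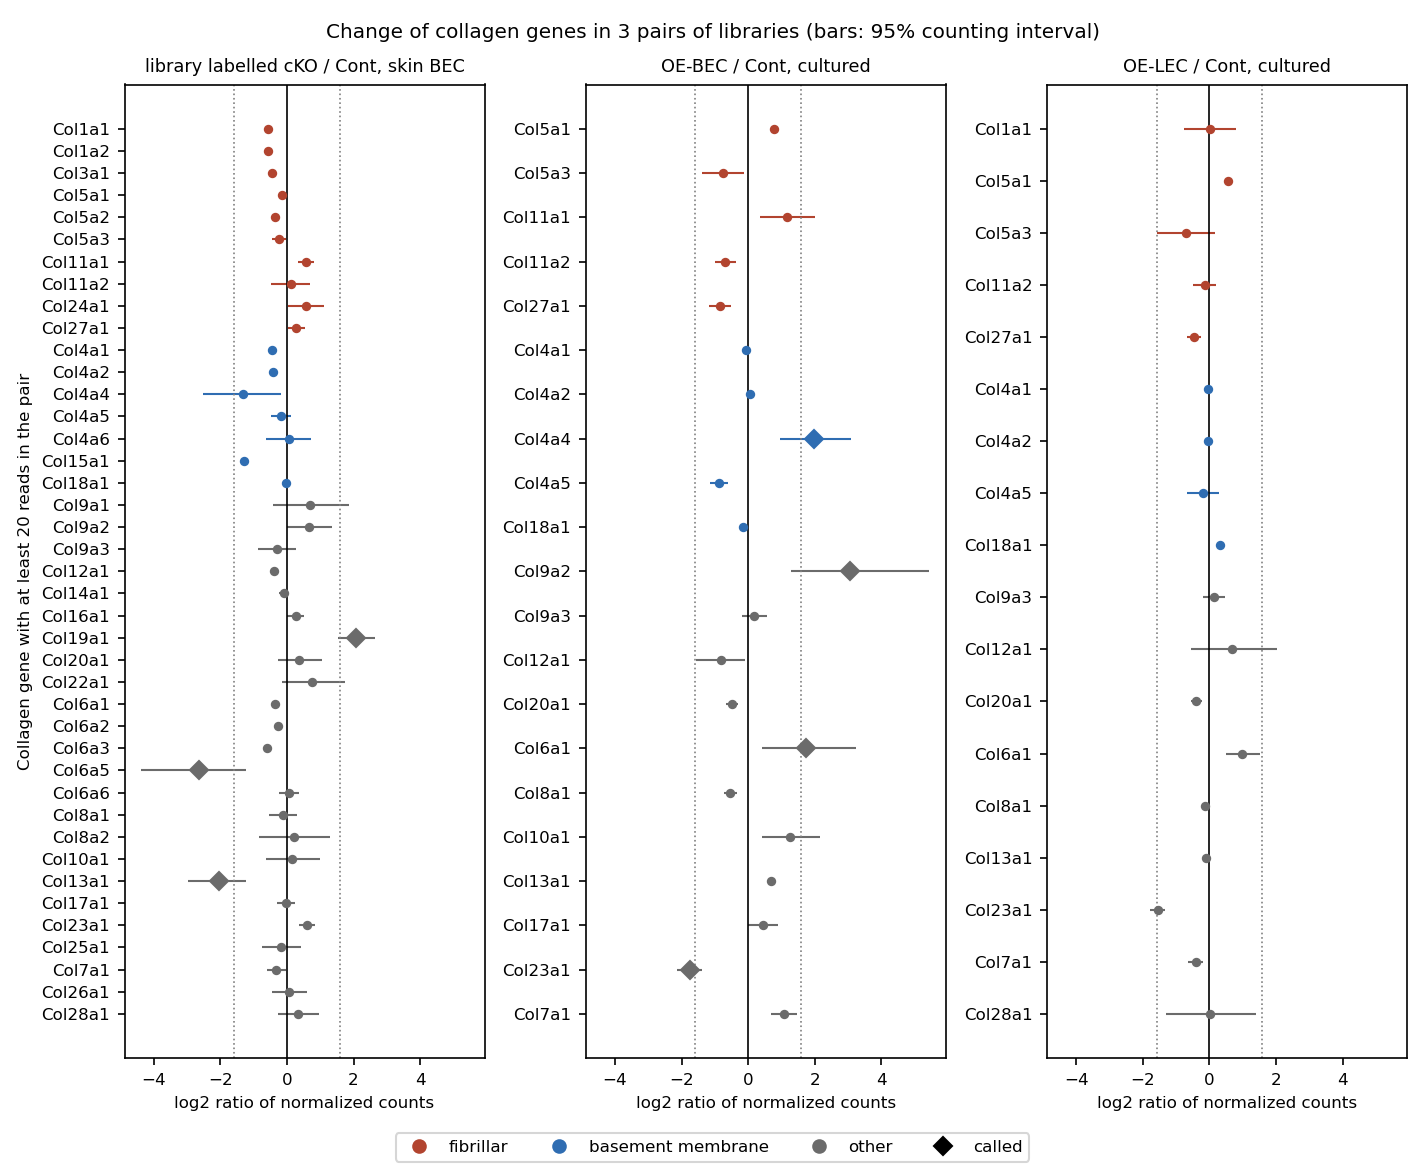
Points give the log2 ratio of normalized counts, changed over control, of each collagen with at least 20 reads in the pair (41, 21 and 18 genes), with 95% counting intervals, red for fibrillar, blue for basement membrane and grey for other collagens. Diamonds are called genes and dotted lines mark a 3-fold difference. Col19a1, Col6a5 and Col13a1 are outside the lines in the skin pair, Col4a4, Col9a2, Col6a1 and Col23a1 in the BEC pair, and none in the LEC pair.

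In OE-BECs against cultured Cont BECs, the type IV chains that lead the class were nearly level. Col4a1 had 38673 and 28487 reads (log2 -0.06, -0.08 to -0.04) and Col4a2 18483 and 14580 reads (log2 0.04, 0.01 to 0.07). With the study's minimum of 3 normalized counts for these cells, 9 of 33 collagens were called higher, beside 8.02% of all genes at the minimum, and 2 lower, beside 5.27%. Most of these calls rested on few reads. With a minimum of 20, 3 of 21 were called higher, beside 1.85%, and 1 lower, beside 2.18%.

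The called members with the most reads were basement membrane and other collagens. Col23a1 went from 327 reads in the control to 75, 3.34-fold lower (log2 -1.74, -2.12 to -1.38). Col4a4, a type IV chain best known from kidney, had 11 and 33 reads, 3.91-fold higher (log2 1.97, 0.95 to 3.10). Col9a2 had 3 and 19 reads (log2 3.05, 1.28 to 5.45), and Col6a1 7 and 18 (log2 1.75, 0.42 to 3.25). Col4a6, a further type IV chain, had 2 and 11 reads (log2 2.84, 0.65 to 6.06), while its partner Col4a5 was lower, with 385 and 160 reads (log2 -0.88, -1.16 to -0.61). The genes of these 2 chains lie head to head on chromosome X, with annotated starts 1309 bases apart. Col1a2 went from 0 to 17 reads, at least 7.39-fold higher against the floor, while Col1a1 had 11 and 3 reads (log2 -1.49, -3.97 to 0.43). The remaining calls were Col6a2 (2 and 5 reads), Col6a6 (1 and 4), Col19a1 and Col26a1 (0 and 3 each) and, lower, Col15a1 (5 and 0), whose intervals all spanned 0.

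Among the more abundant collagens of this pair, differences below 3-fold went both ways. Col5a1 had 1547 and 2038 reads (log2 0.78, 0.68 to 0.88) and Col13a1 2153 and 2684 (log2 0.70, 0.62 to 0.78). Lower values were found for Col20a1 with 809 and 442 reads (log2 -0.49), Col8a1 with 632 and 335 (log2 -0.53), Col27a1 with 249 and 106 (log2 -0.85) and Col11a2 with 251 and 120 (log2 -0.68). Col7a1, the collagen of anchoring fibrils under the epidermis, had 91 and 148 reads (log2 1.08, 0.70 to 1.48). Of 21 members with at least 20 reads, 10 had intervals above 0 and 10 below 0, beside 28.1% and 31.3% of all genes. The median log2 ratio was -0.68 for 5 fibrillar, -0.06 for 5 basement membrane and 0.44 for 11 other members, and -0.02 for all 12500 genes. The median of the fibrillar class and its summed reads differed in sign, since the summed log2 ratio of 0.51 (0.43 to 0.60) was carried by Col5a1, which held 2038 of the 2360 fibrillar reads of OE-BECs. Rn45s, a ribosomal RNA transcript, took 5.91% of the control library and 10.9% of the OE-BEC library. Of 10 blood endothelial markers, 9 had log2 ratios below 0, with summed levels of 8396 and 5740 CPM. Flt1 and Vwf were called lower, beside 5.27% of all genes at the minimum. Fibroblast markers summed to 94.3 and 13.3 CPM, and 2 of 10 had at least 20 reads in the pair. Among the 10, Dpt and Twist2 were called higher, beside 8.02% of all genes at the minimum, and Fbln2 lower, beside 5.27%. The part of Rn45s or of these cell types in the differences of collagens was not tested.

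In OE-LECs against Cont LECs, fewer collagens were called than in the cultured BEC pair. Of 25 members at the minimum of 3, 0 were called higher, beside 2.77% of all genes, and 1 lower, beside 2.09%. That 1 was Col4a4, on 3 and 1 reads, both at or under the floor. With a minimum of 20 none of 16 was called, beside 0.919% higher and 0.430% lower. Col23a1 came nearest among genes with reads to spare, with 618 and 247 reads, 2.94-fold lower (log2 -1.55, -1.77 to -1.34). Col6a1 had 48 and 112 reads (log2 0.99, 0.49 to 1.51), Col5a1 3190 and 5500 (log2 0.56, 0.49 to 0.62) and Col18a1 8147 and 11876 (log2 0.31, 0.27 to 0.35). Col4a1 and Col4a2 were at log2 ratios of -0.04 and -0.03, and Col13a1 at -0.09. The median log2 ratio was -0.14 for 5 fibrillar, -0.04 for 4 basement membrane and -0.09 for 9 other members, and 0.00 for all 12342 genes with at least 20 reads. The sign of the fibrillar median turned to 0.18 with members of at least 1 read. Of the 18 members with at least 20 reads, 3 had intervals above 0 and 8 below 0, beside 25.2% and 22.4% of all genes. Of 10 blood endothelial markers, 8 had log2 ratios below 0 in this pair too, with summed levels of 6909 and 6688 CPM. Vwf was called lower, beside 2.09% of all genes at the minimum. The part of these markers' cells in the differences of collagens was not tested.

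The overexpression pairs share no library, so their values for the same gene could be set side by side for the 16 members with at least 20 reads in each. Intervals lay above 0 in both pairs for Col5a1 and Col6a1, 12.5% of the 16 beside 11.5% of 11887 genes. They lay below 0 in both for Col23a1, Col27a1, Col20a1, Col8a1 and Col4a1, 31.3% beside 12.1%. They lay on opposite sides for Col18a1, Col13a1, Col7a1 and Col4a2, 25.0% beside 10.01%. Of these, Col4a2 was nearly level in both pairs (0.04 and -0.03), and its log2 ratio in OE-BECs was 0.0018 when scaled by total counts. Col23a1 had the lowest log2 ratio of the 16 in both pairs. Its level was 18.5 and 5.38 CPM in cultured Cont BECs and OE-BECs and 23.7 and 7.96 CPM in Cont LECs and OE-LECs. In the skin pair its level was 24.6 and 39.1 CPM, a log2 ratio of 0.61. Of the 7 members with intervals on 1 side in both overexpression pairs, 4 had a skin interval on the other side. These were Col23a1, Col5a1 at -0.15, Col6a1 at -0.35 and Col27a1 at 0.28. Col4a1 lay on the same side (-0.46), and the skin intervals of Col20a1 and Col8a1 spanned 0. This split was not counted over all genes, so it cannot be called particular to collagens.

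**Figure D5:**
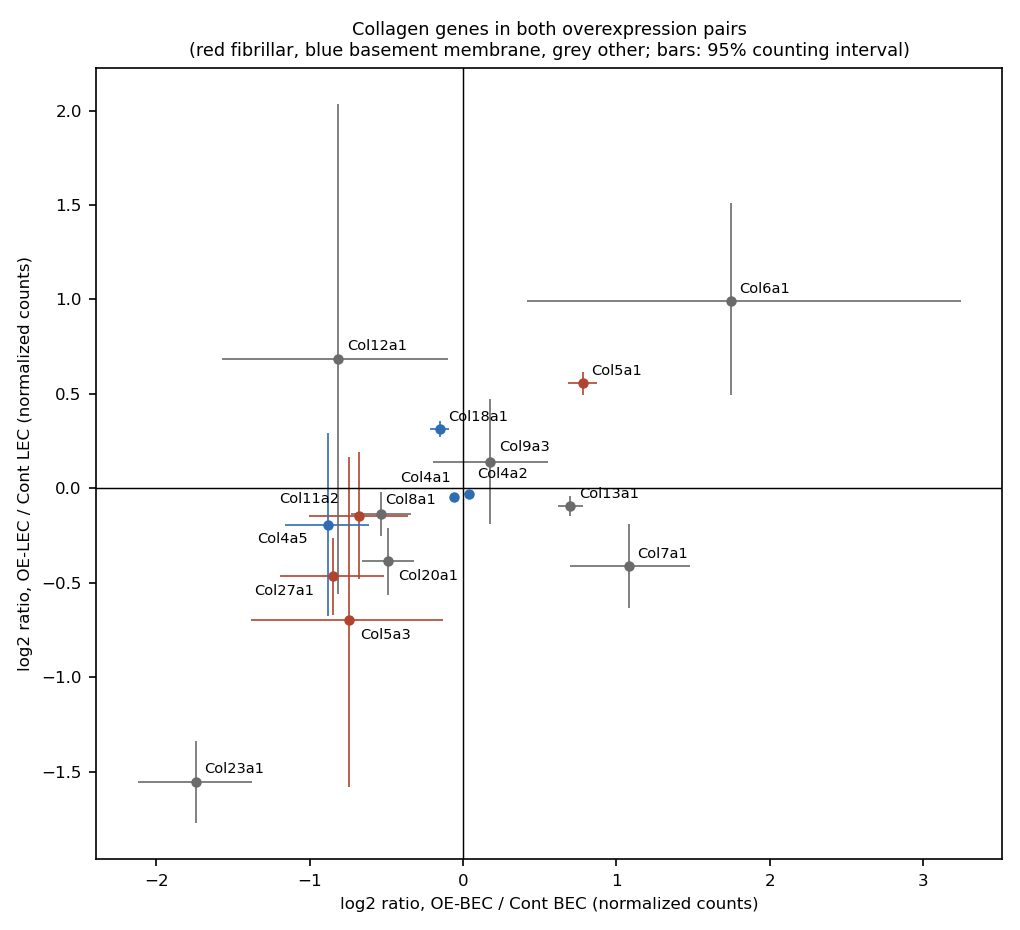
Each point is 1 of the 16 collagens with at least 20 reads in both overexpression pairs, with its log2 ratio of normalized counts in OE-BECs (x axis) and OE-LECs (y axis) and 95% counting intervals, red for fibrillar, blue for basement membrane and grey for other collagens. Col23a1 sits alone at the lower left, Col5a1 and Col6a1 at the upper right, and Col4a1 and Col4a2 next to the origin.

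The 250 bases upstream of the RefSeq start (GRCm38.p6) are shown for Col5a1 and Col23a1, which had intervals on 1 side in both overexpression pairs, and for Col15a1, which parted from Col18a1 in skin. Col5a1 is at chr2:27886175-27886424, Col23a1 at chr11:51289670-51289919 and Col15a1 at chr4:47207762-47208011, all on the plus strand, and capitals mark a GC box, spelled GGGCGG. They would also mark a CCAAT box, named by its letters, or a TATA box, spelled TATAAA, and both strands were searched.
Col5a1: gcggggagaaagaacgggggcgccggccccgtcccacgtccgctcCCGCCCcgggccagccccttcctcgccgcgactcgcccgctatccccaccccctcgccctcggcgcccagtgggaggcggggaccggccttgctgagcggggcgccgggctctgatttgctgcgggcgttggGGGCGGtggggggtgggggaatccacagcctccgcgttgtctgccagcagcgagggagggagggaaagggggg
Col23a1: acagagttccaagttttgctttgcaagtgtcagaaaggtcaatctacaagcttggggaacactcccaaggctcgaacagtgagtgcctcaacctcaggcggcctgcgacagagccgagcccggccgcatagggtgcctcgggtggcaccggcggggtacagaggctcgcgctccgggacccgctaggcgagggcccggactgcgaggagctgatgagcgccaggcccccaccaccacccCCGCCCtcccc
Col15a1: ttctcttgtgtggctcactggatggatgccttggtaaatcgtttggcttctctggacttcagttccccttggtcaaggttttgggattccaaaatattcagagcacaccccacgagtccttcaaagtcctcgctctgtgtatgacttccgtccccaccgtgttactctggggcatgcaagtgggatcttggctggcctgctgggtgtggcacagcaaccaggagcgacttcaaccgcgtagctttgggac
The window of Col5a1 held 2 GC boxes and 76.4% G and C, that of Col23a1 1 GC box and 66.0%, and that of Col15a1 none of the 3 motifs and 53.6%. The capitals do not overlap. A GC box was found in 22 of 38 such windows of 35 collagen genes and in 32.7% of the windows of 32851 promoters, a CCAAT box in 13 of 38 and 33.8%, and a TATA box in 5 of 38 and 12.4%. A match is a description of letters and not a binding site.

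Enzymes that modify, fold and cross-link collagen were followed as the partners of the chains. Those of their genes named below without a call were singled out after their values were seen. The 19 genes of the biosynthesis list, among them the prolyl hydroxylase subunits P4ha1 and P4hb, the lysyl hydroxylases Plod1 to Plod3 and the collagen chaperone Serpinh1, summed to 2345 to 3626 CPM. In the library labelled cKO none was called, and P4ha2, another prolyl hydroxylase subunit, had 121 and 419 reads (log2 1.41, 1.12 to 1.72), while Serpinh1 was at -0.36. In OE-BECs 1 of the 19 was called lower, Fkbp14, a peptidyl-prolyl isomerase, with 682 and 124 reads (log2 -2.08, -2.36 to -1.80), beside 5.27% of all genes. P3h2, a prolyl 3-hydroxylase of type IV collagen, had 2351 and 734 reads in that pair (log2 -1.30) and 2051 and 1385 in the LEC pair (log2 -0.80, -0.90 to -0.70). In OE-LECs none was called, and 15 of 18 with at least 20 reads had log2 ratios above 0, with a median of 0.19, beside 6271 of 12342 genes and a median of 0.00. P4ha2 was at 0.72 there and Plod2, which hydroxylates the collagen telopeptides, at 0.37.

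Of the 12 genes for processing and cross-linking, which include procollagen proteases and lysyl oxidases, Lox and Adamts2 had 0 reads in all 4 cultured libraries, while the skin libraries had 453 and 459 reads of Lox and 115 and 116 of Adamts2. In the skin pair none was called, and Tll1, a protease that trims procollagen, was at log2 -1.19 (-1.47 to -0.90). In OE-BECs 1 was called higher, Pcolce, an enhancer of procollagen processing, with 24 and 65 reads (log2 1.82, 1.13 to 2.56), beside 8.02% of all genes. In OE-LECs none was called, and 7 of 8 with at least 20 reads were above 0, with a median log2 ratio of 0.45, against the same 6271 of 12342 genes. The lysyl oxidases Loxl3 and Loxl4 were higher beyond counting error in both overexpression pairs, Loxl3 at 1.05 and 1.03 and Loxl4 at 0.89 and 0.73.

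Of 10 collagen receptors, Itgb1, the shared beta chain of the collagen-binding integrins, ranged from 886 to 1369 CPM over the 6 libraries. Itga1, a partner that binds type IV collagen, was the 1 receptor called lower in OE-BECs, beside 5.27% of all genes, with 2564 and 638 reads (log2 -1.62, -1.75 to -1.50), and had 1103 and 1385 reads in the LEC pair (log2 0.10, -0.02 to 0.21). In the library labelled cKO, Lair1, an inhibitory collagen receptor of leukocytes, was the 1 receptor called higher, beside 5.17% of all genes. Lair1 had 7 and 58 reads (log2 2.67, 1.54 to 4.05). Macrophage markers were higher in that library too, and their part in the Lair1 difference was not tested. Ddr1, a receptor tyrosine kinase for collagen, was at 28 and 87 reads in the LEC pair (log2 1.41, 0.78 to 2.07) and was not called.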

How the data were processed

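Gene expression was measured by RNA-seq in 6 libraries, 1 per condition, grouped by the sample labels. The authors prepared the libraries with a ScriptSeq kit, trimmed adapters with skewer, aligned the reads to mm10 with STAR, counted reads per gene with VERSE and its -S option, and deposited raw counts for 24421 gene symbols. Whether that option made the counting use strand was not settled here, so reads in overlapping exons of opposite strands (the 22 bases of Col4a1 and Col4a2, Col10a1 with Nt5dc1, Col9a3 with Tcfl5) cannot be assigned with certainty. CPM used the library totals, 8863349 to 31032461 reads. Exon lengths and positions came from GENCODE M21 (GRCm38), which gave them for 44 of 44 members.

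Size factors were computed per pair with DESeq2 1.42.0 (R 4.3.3). Calls needed at least 5 (cKO) or 3 (OE) normalized counts in the higher library and a ratio above 3. With 1 library per group no test was run. Intervals are exact (Clopper-Pearson, 95%) on the reads of both libraries, with SciPy 1.17.1. Medians used members with at least 20 reads in the pair and a pseudocount of 1. A count of 3 reads or fewer was the floor. Alternatives were size factors from all 6 libraries, TMM of edgeR 4.0.16, total counts, minima of 1 and 20, a fold of 2, an interval that excludes 0, a pseudocount of 0.1, and members with at least 1 or 100 reads. The call rule and the intervals were tested on simulated counts that held counting error only, and the medians and shares were not tested in this way. The members, classes, lists and rule for naming genes (members by level per class, calls, and partner chains) were chosen with earlier results of these data known.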

Additional observations from a re-analysis of the deposited data

Results flagged for a closer look

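For 4 collagens the overexpression pairs lay on opposite sides of no change. The condition was counting intervals that excluded 0 under every scaling, or opposite calls. The share of all genes that meet it was not taken. The difference was not tested, since each side is 1 pair of libraries. Among members with at least 20 reads in both pairs, Col4a2 (0.04 and -0.03) and Col12a1 (-0.81 and 0.69) also had opposite signs without meeting that condition. Opposite signs were also seen in members with fewer reads, such as Col10a1 (1.26 and -0.82). The log2 ratio of Col18a1 was -0.15 in OE-BECs and 0.31 in OE-LECs, a difference of -0.47. Col13a1 was at 0.70 and -0.09, a difference of 0.79. Col7a1 was at 1.08 and -0.41, a difference of 1.496. For these 3 the counting intervals excluded 0 on both sides under each of the 4 scalings. Col4a4 was called higher in OE-BECs (1.97) and lower in OE-LECs (-1.82), a difference of 3.78, of which the LEC value rests on 3 and 1 reads.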

How the results depend on the processing

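No replicate could be left out and no paired analysis was possible because each condition had 1 library. Under the alternatives, 83 values for counts of calls and class medians were labelled as close and 16 as moved. The 83 include both class medians that changed sign and the 12 higher calls in OE-BECs given below. For single genes 112 stayed close and 8 moved, all 8 with total counts. The sign changed 3 times: Col18a1 in cKO was at 0.041 with total counts, the median of the other collagens in cKO was -0.11 with members of at least 100 reads, and the fibrillar median in OE-LECs was 0.18 with members of at least 1 read. Higher calls in OE-BECs numbered 12 with a minimum of 1 or a fold of 2. A fold of 2 gave 2 higher and 4 lower members in cKO, and 1 higher and 4 lower in OE-LECs. A minimum of 20 gave 3 higher and 1 lower in OE-BECs and 0 lower in OE-LECs, and a minimum of 1 gave 2 higher and 3 lower in OE-LECs. Calls whose interval excluded 0 numbered 5 higher and 1 lower in OE-BECs and 0 lower in OE-LECs. Size factors from all 6 libraries gave 0 lower in OE-LECs. With members of at least 1 read, the basement membrane medians were -0.30 in cKO and -0.080 in OE-LECs, and the fibrillar median in OE-BECs was -0.051. Most calls in OE-BECs are thus at a depth where few reads decide them. The other scalings shifted all log2 ratios of a pair by at most 0.06.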
